A study of Caenorhabditis elegans with 36 samples.

Results

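MicroRNA (miRNA) genes of Caenorhabditis elegans were followed through 8 peak lists from chromatin immunoprecipitation sequencing (ChIP-seq) of HDA-1 and DVE-1. The members were all genes of the WBcel235 annotation whose symbol is mir- followed by a digit (255 genes) together with let-7, lin-4 and lsy-6 (3 genes), which made 258 of the 46890 genes annotated on the 6 nuclear chromosomes. A gene was called bound in a list when a listed peak overlapped the 1000 bp upstream of the gene or the gene itself by at least 1 bp. Under this rule 149 miRNA genes were bound in 1 or more lists and 109 in none.

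A miRNA is cut from a hairpin precursor within a longer primary transcript, and the mature strand of the hairpin guides an Argonaute protein to messenger RNAs. Pairing rests mainly on the seed near the 5′ end of the mature strand, so that miRNAs with one seed form a family. In worms, lin-4 and let-7 are the founding miRNAs of developmental timing, and other miRNAs act in embryos, in single tissues and in ageing.

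HDA-1 is a class I histone deacetylase and DVE-1 is a SATB-type homeodomain protein that takes part in the mitochondrial unfolded protein response. The 36 samples were 18 ChIP and 18 input samples of whole worms at day 1 of adulthood, and the comparisons address where both proteins sit when mitochondria are disturbed and when the other protein is depleted. Knockdown of atp-2, which encodes a subunit of the mitochondrial ATP synthase, was the mitochondrial disturbance. The 4 HDA-1 conditions were dve-1 plus atp-2 RNAi and dve-1 RNAi (3 ChIP samples each), then control plus atp-2 RNAi and control RNAi (2 each). All worms of these conditions carried hda-1p::hda-1::gfp and glp-4(bn2). The 4 DVE-1 conditions were hda-1 plus atp-2 RNAi, hda-1 RNAi, control plus atp-2 RNAi and control RNAi, with 2 ChIP samples each, and these worms carried dve-1p::dve-1::gfp and glp-4(bn2). Control bacteria held the empty vector L4440. The glp-4(bn2) allele, a temperature-sensitive germline mutation, was shared by every condition, and each protein was followed as a GFP fusion expressed from its own promoter.

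Each condition had 1 deposited list, which holds peak positions only. The number of peaks ran between 4279 (DVE-1, control RNAi) and 9862 (HDA-1, dve-1 plus atp-2 RNAi). No list carries a value for a single replicate, a peak height or a read depth. The spread between worms could therefore not be measured, no test between conditions was possible, and intervals given here cover counting error only. The depletion of hda-1 or dve-1 could not be checked in such lists. Peaks of the HDA-1 lists with dve-1 RNAi were narrower, with medians of 710.5 bp under dve-1 plus atp-2 RNAi and 733.0 bp under dve-1 RNAi, against 1067.0 bp under control plus atp-2 RNAi and 1165.0 bp under control RNAi. Those 2 conditions were also the ones with 3 ChIP samples, so the effect of dve-1 RNAi and the number of samples cannot be told apart in any count between these lists.

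The seeds of the families described below are shown on mature strands read from the RefSeq annotation of WBcel235, 5′ to 3′, with the seed (bases 2 to 8) in capitals. They are shown because the families differed in how their genes were covered. In the lin-4 seed family, lin-4 lies at chrII:5902254-5902347 on the plus strand, in an intron of F59G1.4, and mir-237 at chrX:8154084-8154182 on the plus strand, outside protein-coding genes.
lin-4: uCCCUGAGaccucaaguguga
mir-237: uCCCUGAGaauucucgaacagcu
The let-7 family shares another seed. A further gene with this seed, mir-795, is not shown. It was bound in 2 of the 8 lists, by HDA-1 under dve-1 plus atp-2 RNAi (125 bp) and by DVE-1 under hda-1 RNAi (209 bp). The RefSeq gene of let-7 spans chrX:14743590-14745321 on the minus strand and is wider than its hairpin. So are the annotated genes of 6 other members (mir-8192, mir-8196.1, mir-8196.2, mir-8199, mir-8209 and mir-8210), and for the remaining 251 the annotated span served as the hairpin.
let-7: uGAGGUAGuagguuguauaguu
mir-48: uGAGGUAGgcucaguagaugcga
mir-241: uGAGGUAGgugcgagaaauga
mir-84: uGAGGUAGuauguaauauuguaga
In the mir-35 family, mir-35 to mir-41 lie in intronic sequence of Y62F5A.9, on the opposite strand, and mir-42 lies elsewhere on the same chromosome.
mir-35: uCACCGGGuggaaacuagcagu
mir-42: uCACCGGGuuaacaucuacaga
The mir-51 family and the pair of mir-238 and mir-239.1 had peaks in every list.
mir-51: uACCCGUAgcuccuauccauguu
mir-238: uUUGUACUccgaugccauucaga
mir-239.1: uUUGUACUacacauagguacugg
The mir-58 family is shown because its members ranged between a fully covered window and no peak, with mir-58.1 differing from the others in the last base of the seed.
mir-58.1: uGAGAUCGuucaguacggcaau
mir-80: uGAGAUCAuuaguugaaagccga
mir-81: uGAGAUCAucgugaaagcuagu
mir-82: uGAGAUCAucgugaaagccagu
Of 258 genes, 257 had an annotated mature strand, and 46 seeds, read from every annotated strand, were shared by 2 or more genes.

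Across the 8 lists, 78 to 122 of the 258 miRNA genes were bound. HDA-1 was listed at 122 miRNA genes under dve-1 plus atp-2 RNAi (47.3%, 95% Wilson interval 41.3 to 53.4%), where 31.3% of all annotated genes were bound. Under dve-1 RNAi it was listed at 111 (43.0%, 37.1 to 49.1%; all genes 27.5%). Under control plus atp-2 RNAi the number was 95 (36.8%, 31.2 to 42.9%; all genes 27.5%), and under control RNAi it was 108 (41.9%, 36.0 to 48.0%; all genes 28.6%). The share of miRNA genes lay above that of all genes in each HDA-1 list.

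DVE-1 was listed at 105 miRNA genes under hda-1 plus atp-2 RNAi (40.7%, 34.9 to 46.8%; all genes 31.7%) and at 107 under hda-1 RNAi (41.5%, 35.6 to 47.6%; all genes 27.7%). Under control plus atp-2 RNAi it was listed at 92 (35.7%, 30.1 to 41.7%; all genes 27.3%). The fewest, 78 (30.2%, 25.0 to 36.1%), stood in the list of control RNAi, which also had the lowest share of all genes (19.1%).

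All annotated genes include 15363 piRNA genes, and protein-coding genes are mostly longer than a hairpin. A second background therefore gave each of the 19971 protein-coding genes a window of the same length as a miRNA gene (1000 bp upstream and the first 96 bp, the median miRNA gene length). By this measure, 34.6% of protein-coding genes were bound by HDA-1 under dve-1 plus atp-2 RNAi, 30.4% under dve-1 RNAi, 33.5% under control plus atp-2 RNAi and 34.0% under control RNAi. For DVE-1 the shares were 37.4% under hda-1 plus atp-2 RNAi, 32.2% under hda-1 RNAi, 33.3% under control plus atp-2 RNAi and 21.4% under control RNAi. The miRNA share was higher in all 8 lists, but this background lay inside the Wilson interval of the miRNA genes for both control plus atp-2 RNAi lists and for DVE-1 under hda-1 plus atp-2 RNAi. The higher share was not found throughout the class: the 123 genes with symbol numbers from 1000 up were bound at 22.8 to 34.1% and the 135 others at 37.0 to 61.5% across the lists, a split chosen after the data were seen.

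**Figure D1:**
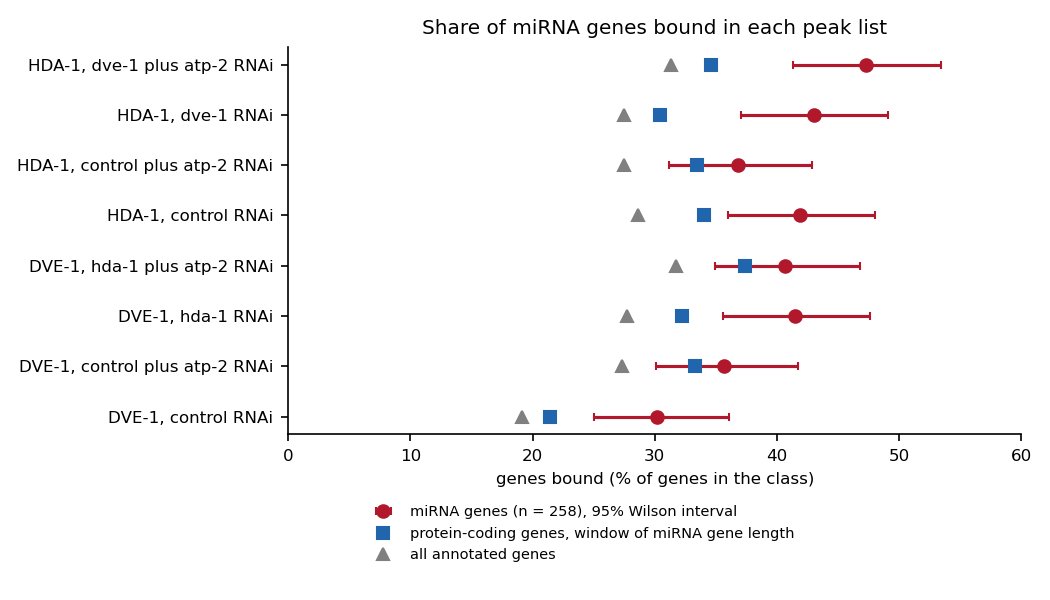
The horizontal axis is the percentage of genes bound and each line is 1 of the 8 peak lists. Circles with 95% Wilson intervals (counting error only) are the 258 miRNA genes, squares protein-coding genes with a window of miRNA gene length and triangles all annotated genes; the circles lie between 30.2% and 47.3% and to the right of both backgrounds in every list.

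Neighbouring miRNA genes share windows and peaks. The 258 genes formed 220 separate loci, 21 of which held 59 genes, and between 71 loci (DVE-1, control RNAi) and 103 loci (HDA-1, dve-1 plus atp-2 RNAi) were bound. Most bound genes had a peak over the hairpin itself, but 42 of 122 under dve-1 plus atp-2 RNAi and 40 of 111 under dve-1 RNAi were reached only upstream, against 19 of 95 under control plus atp-2 RNAi and 25 of 108 under control RNAi (HDA-1 lists). Among genes bound by HDA-1, the median covered length of the window was 567.5 bp and 575.0 bp in the lists with dve-1 RNAi (with and without atp-2 RNAi), against 1016.0 bp and 817.0 bp in those without it. The peaks were not specific to miRNA genes: in the 8 lists, between 35.1% (HDA-1, dve-1 RNAi) and 50% (DVE-1, control plus atp-2 RNAi) of bound miRNA genes had a peak that also came within 500 bp of the 5′ end of a protein-coding gene. The rule cannot tell such genes apart.

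Position within other genes went with the share bound. Of the hairpins, 72 lay in a protein-coding gene on the same strand, 32 in one on the opposite strand and 154 outside protein-coding genes. Same-strand hairpins were bound at 38.9 to 62.5% across the lists, and those outside at 27.9 to 41.6%. Opposite-strand hairpins ranged between 21.9 and 53.1%, with both highest values (53.1%) in the HDA-1 lists with dve-1 RNAi. The 7 genes mir-35 to mir-41 belong to this class.

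A core of 63 miRNA genes, at 56 loci, was bound in all 8 lists. This was 24.4% of the miRNA genes, beside 14.4% of all genes and 15.8% of protein-coding genes in the equal window. The 109 genes bound in none made 42.2%, beside 57.4% of all genes and 50.9% of protein-coding genes in the equal window. The remaining 86 genes were bound in 1 to 7 lists. In 18 genes the whole window was covered in every list, so that no change in coverage could be seen there. Among these fully covered windows, covered length only reflects the annotated length of the gene, and the 5 longest were those of mir-8192 (1137 bp), mir-229 (1115 bp), and mir-77, mir-52 and mir-51 (1100 bp each).

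The genes of developmental timing are 6, all with symbol numbers under 1000 by the grouping above. HDA-1 was listed at 5 under dve-1 plus atp-2 RNAi, at 6 under dve-1 RNAi and at 5 in each list without dve-1 RNAi. DVE-1 was listed at 6 under hda-1 plus atp-2 RNAi and under hda-1 RNAi, at 5 under control plus atp-2 RNAi and at 4 under control RNAi. With so few genes the Wilson intervals were wide, as for the last count (30.0 to 90.3%), and the share over all genes with symbol numbers under 1000 was 37.0 to 61.5% across the lists. The gene lin-4, which ends the first larval programme, was covered in every list, by 906, 900, 845 and 1054 bp of 1094 bp in the HDA-1 lists (dve-1 plus atp-2, dve-1, control plus atp-2 and control RNAi), and by 735, 748, 936 and 766 bp in the DVE-1 lists (hda-1 plus atp-2, hda-1, control plus atp-2 and control RNAi). Values below keep this order of lists. Coverage of lin-4 lay mainly upstream of the hairpin, which was touched in a single list (54 bp, HDA-1, control RNAi).

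The larval-to-adult switch gene let-7 had an HDA-1 peak in all 4 lists, covering 1069, 947, 340 and 357 bp of its 2732 bp window. DVE-1 covered 1020, 1042, 404 and 0 bp. Within the window, the only list without a peak was thus that of DVE-1 under control RNAi. This depended on the window, since all 8 lists held a further peak between -2305 and -1485 bp of the start of the let-7 gene, which a window of 2000 bp reaches. With hda-1 RNAi the DVE-1 cover was longer than with control RNAi. The let-7 hairpin itself (99 bp) was covered only by HDA-1 under dve-1 plus atp-2 RNAi.

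Its relatives, which act at earlier larval stages, differed in the DVE-1 lists. The window of mir-241 was covered whole in all 8 lists, and that of mir-48 in 6, the exceptions being HDA-1 under dve-1 plus atp-2 RNAi (871 of 1098 bp) and under dve-1 RNAi (865 bp). At mir-84, HDA-1 covered 1075, 687, 1075 and 1075 bp of 1075 bp, and DVE-1 covered 1075, 1075, 0 and 0 bp. DVE-1 was thus listed at mir-84 with hda-1 RNAi and not without it. The pattern of mir-237, the second gene of the lin-4 seed, was the opposite of that of mir-84 between the proteins: HDA-1 covered 0, 389, 0 and 0 bp, and DVE-1 1099 bp of 1099 bp in all 4 lists. Its 5 peaks were wide (3677 to 5103 bp) and also held 6 to 8 transfer RNA genes, and HDA-1 peaks in the other 3 lists began 262 to 343 bp past the start of mir-237, beyond the window.

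**Figure D2:**
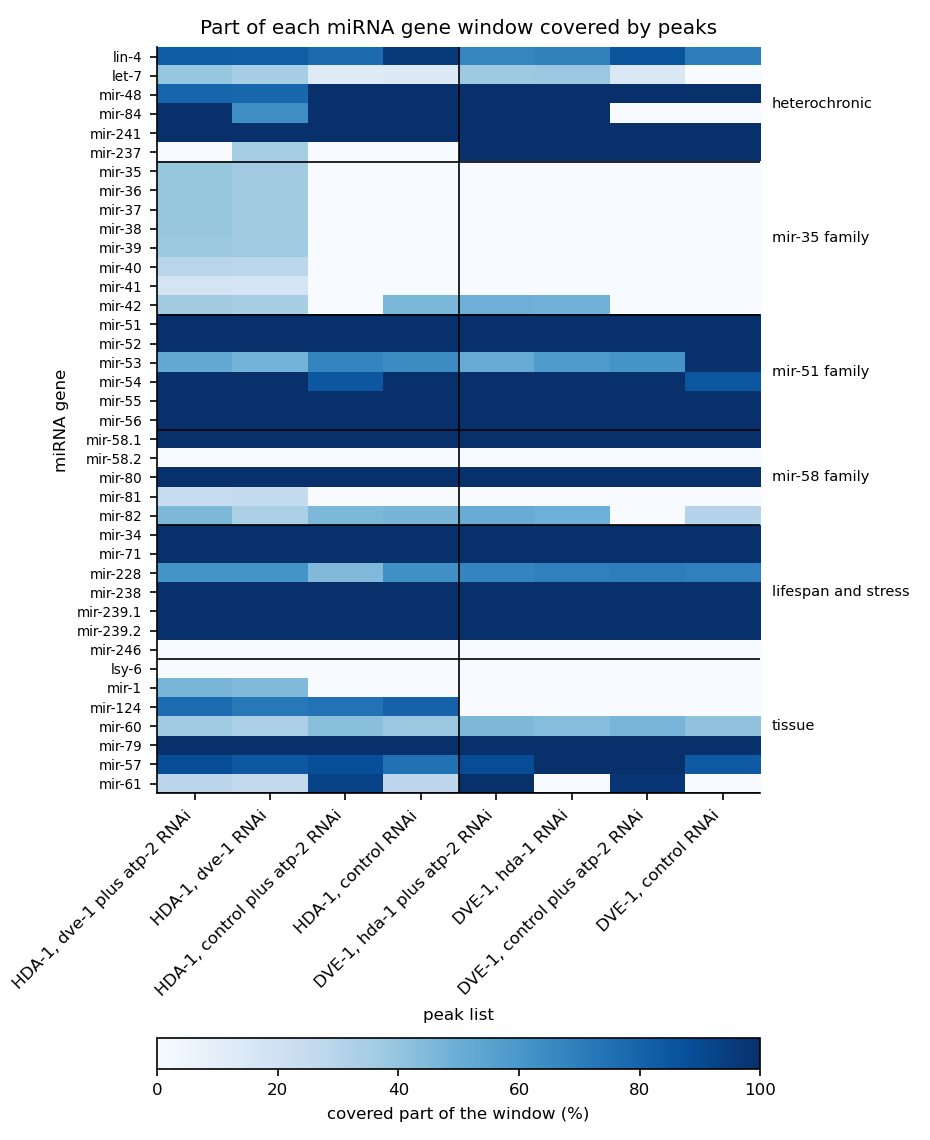
Each line is a named miRNA gene, grouped by list, and each column 1 of the 8 peak lists; the colour is the percentage of the window (1000 bp upstream and the gene) covered by peaks. The mir-51 family is covered in all columns, mir-35 to mir-41 only in the first 2, mir-124 only in the 4 HDA-1 columns and mir-58.2, mir-246 and lsy-6 in none.

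In the mir-35 family, whose members act redundantly in embryonic development, HDA-1 was listed at 8 of 8 genes with dve-1 RNAi, both with and without atp-2 RNAi, at 0 under control plus atp-2 RNAi and at 1 (mir-42) under control RNAi. DVE-1 was listed at 1 (mir-42) in both hda-1 RNAi lists and at 0 in both lists without hda-1 RNAi. The 7 genes mir-35 to mir-41 depended on 1 peak, so they count as 1 locus. This peak was 432 bp wide under dve-1 plus atp-2 RNAi (chrII:11537068-11537499) and 396 bp wide under dve-1 RNAi (chrII:11537095-11537490), and ended at -109 and -118 bp from the start of mir-35. No DVE-1 list had a peak in these windows. The calls depended on the window, since every HDA-1 list held a further peak that ended between -1831 and -1800 bp of the start of mir-35. Both DVE-1 lists with hda-1 RNAi held such a peak too. A window of 2000 bp at mir-35 reaches these peaks. Under control plus atp-2 RNAi, peaks also began 1042 bp (HDA-1) and 1026 bp (DVE-1) past the start of mir-35, beyond mir-41.

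The 300 bases at the centre of the peak under dve-1 plus atp-2 RNAi (chrII:11537134-11537433, plus strand, the strand of mir-35) are shown because this peak stood in both lists with dve-1 RNAi and in neither HDA-1 list without it. GC made up 56.3% of the bases. Capitals mark GAGAGA, searched on both strands, which was found once.
mir-35 upstream peak: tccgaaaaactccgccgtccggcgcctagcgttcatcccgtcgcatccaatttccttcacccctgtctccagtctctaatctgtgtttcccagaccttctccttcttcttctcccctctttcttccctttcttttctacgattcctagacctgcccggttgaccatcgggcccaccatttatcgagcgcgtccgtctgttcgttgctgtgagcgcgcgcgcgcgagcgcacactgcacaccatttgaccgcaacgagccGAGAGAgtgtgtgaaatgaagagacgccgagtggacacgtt

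The last member, mir-42, lies in a cluster with mir-43 and mir-44 and behaved differently. HDA-1 covered 394, 376, 0 and 504 bp of its window and DVE-1 541, 532, 0 and 0 bp. HDA-1 was absent from this cluster only under control plus atp-2 RNAi, and DVE-1 was listed there only with hda-1 RNAi. The same lists held mir-43 and mir-44, which share these peaks.

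All 6 genes of the mir-51 family, a broadly expressed family needed in embryos, were bound in all 8 lists, as were 24.4% of all miRNA genes. They lie at 4 loci. The lowest cover in the family was at mir-53, with 574, 525, 742 and 710 bp of 1099 bp for HDA-1 and 559, 640, 678 and 1099 bp for DVE-1. At mir-54, cover fell short of the whole 1099 bp only for HDA-1 under control plus atp-2 RNAi (933 bp) and DVE-1 under control RNAi (937 bp).

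The 5 genes listed here as the mir-58 family, relatives of the fly bantam miRNA, ranged between the whole window in every list and no peak in any. A further gene with the seed GAGAUCA, mir-2209.1, was not in this fixed list and had no peak in any list. Whole windows of mir-58.1 (1097 bp) and mir-80 (1098 bp) were covered in all 8 lists, and mir-58.2 had no peak. At mir-82, HDA-1 covered 499, 367, 499 and 518 bp of 1097 bp, and DVE-1 558, 543, 0 and 331 bp. It was the only miRNA gene that DVE-1 lost with atp-2 RNAi under control RNAi. At mir-81, which like mir-82 lies in an intron of gid-2 but on the opposite strand to it, HDA-1 covered 268, 284, 0 and 0 bp and DVE-1 was not listed.

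Of 8 genes linked to lifespan or stress, 7 were bound in every list, beside 63 of all 258 miRNA genes (24.4%) and 42 of the 135 with symbol numbers under 1000. The 7 are not separate observations, since mir-239.1 and mir-239.2 form 1 locus. The 8 genes were chosen with earlier results of these data known, so the count is a description only. Whole windows were covered at mir-71, which extends lifespan, at mir-34, a stress-related miRNA, and at mir-238, mir-239.1 and mir-239.2, which share a seed, in each of the 8 lists. The window of mir-228 (1098 bp) was covered in part, with 676, 676, 490 and 694 bp for HDA-1 and 741, 757, 768 and 755 bp for DVE-1. In contrast mir-246 had no peak in any list.

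The 7 tissue miRNAs varied in which lists held them. HDA-1 was listed at 6 (85.7%) in each list with dve-1 RNAi and at 5 (71.4%) in each without it. DVE-1 was listed at 4, 3, 4 and 3 (57.1, 42.9, 57.1 and 42.9%). All genes with symbol numbers under 1000 were bound at 61.5, 56.3, 43.7 and 48.9% for HDA-1. For DVE-1 their shares were 51.1, 52.6, 42.2 and 37.0%, near those of the tissue miRNAs. Always bound were mir-60 of the intestine (367 to 513 bp of 1098 bp), mir-57 of the posterior body (820 to 1099 bp of 1099 bp) and mir-79 of the epidermis (1098 bp throughout). No peak was listed at lsy-6, which acts in 1 pair of taste neurons. At the muscle miRNA mir-1, HDA-1 covered 512, 492, 0 and 0 bp, and DVE-1 was not listed.

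The neuronal miRNA mir-124 (chrIV:11871738-11871833, plus strand, in an intron of trpa-1) was covered by HDA-1 over 841, 788, 816 and 883 bp of 1096 bp and by DVE-1 over 0 bp in all 4 lists. None of its 4 HDA-1 peaks, 1194 to 1393 bp wide, came within 500 bp of a protein-coding 5′ end.

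The vulval miRNA mir-61 (chrV:11770060-11770156, minus strand, outside protein-coding genes) shares its peaks with mir-250. HDA-1 covered 309, 283, 1019 and 304 bp of 1097 bp, and DVE-1 1097, 0, 1071 and 0 bp. DVE-1 was thus listed in both lists with atp-2 RNAi and in neither without it. HDA-1 cover was longest in control plus atp-2 RNAi and differed little among the other 3 lists. Each of these peaks also came within 500 bp of the 5′ end of F55A11.4. The sequence around the centre of the DVE-1 peak under control plus atp-2 RNAi (chrV:11770495-11770794, given on the minus strand, the strand of mir-61) holds neither GAGAGA nor TGATAA on either strand, and GC made up 30.0% of its bases.
mir-61 upstream peak: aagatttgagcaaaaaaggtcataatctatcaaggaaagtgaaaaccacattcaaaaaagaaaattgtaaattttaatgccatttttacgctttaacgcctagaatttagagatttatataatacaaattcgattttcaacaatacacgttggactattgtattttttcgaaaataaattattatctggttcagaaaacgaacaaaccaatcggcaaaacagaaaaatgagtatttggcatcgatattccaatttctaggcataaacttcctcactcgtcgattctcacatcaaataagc

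**Figure D3:**
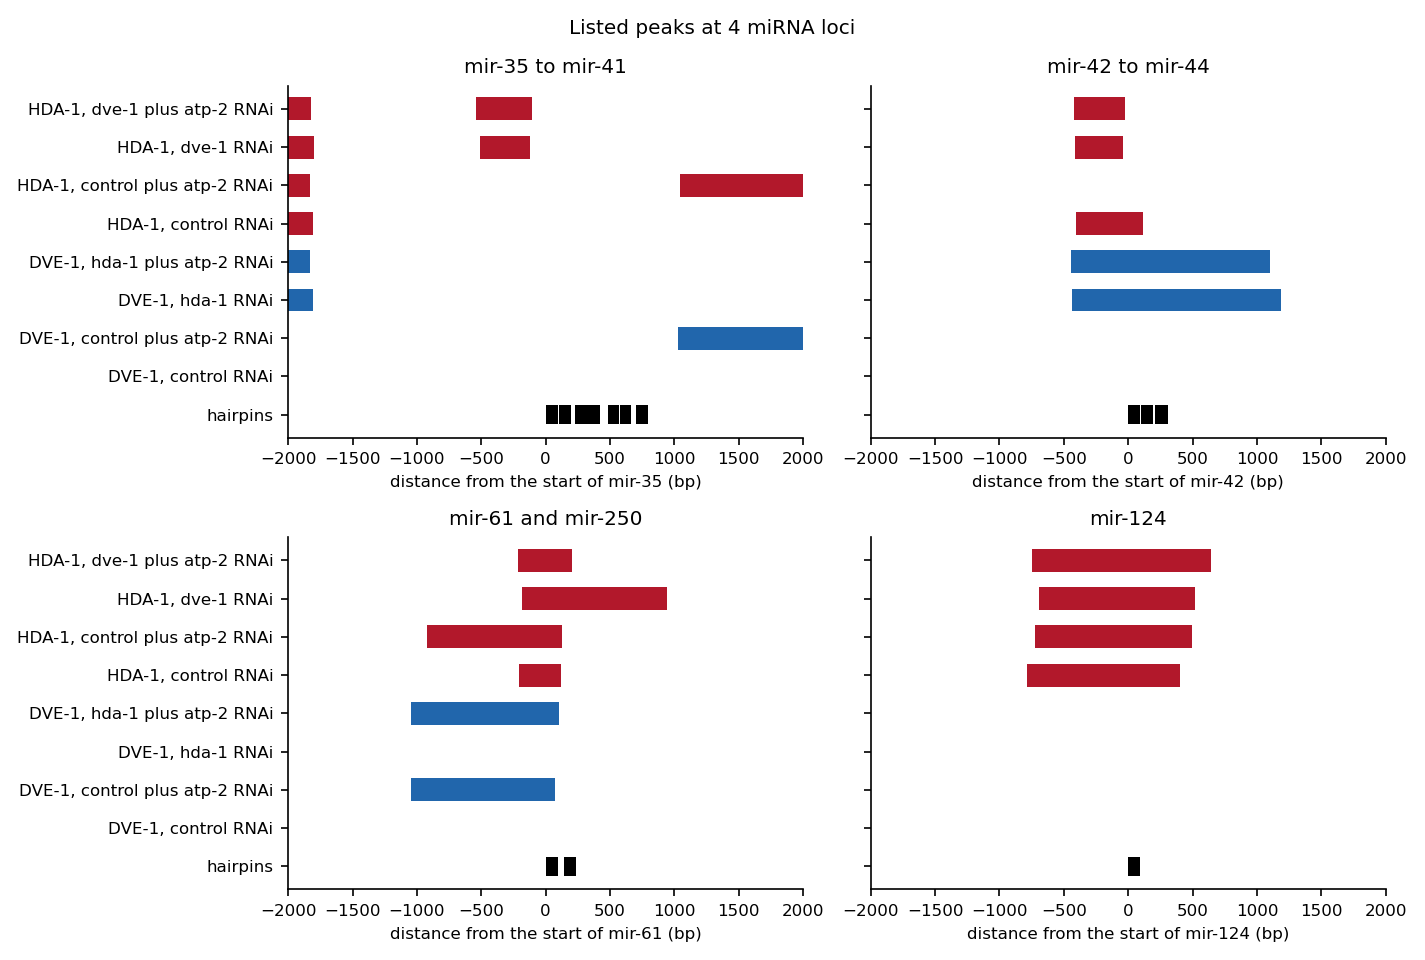
Bars are listed peaks of the 8 lists (HDA-1 above, DVE-1 below) and black boxes the hairpins; the horizontal axis is the distance in bp from the start of the first-named miRNA gene in its direction of transcription, and peaks running past 2000 bp are cut off at the edge. The peak just upstream of mir-35 appears only in the 2 HDA-1 lists with dve-1 RNAi, DVE-1 peaks at mir-61 only in the 2 lists with atp-2 RNAi, and peaks at mir-124 only in HDA-1 lists.

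With atp-2 RNAi under control RNAi, HDA-1 was lost from more miRNA genes than it gained, and DVE-1 gained more than it lost. HDA-1 was bound at 95 miRNA genes with atp-2 RNAi, against 108 without it, with 1 gained (0.388%, beside 2.23% of all genes) and 14 lost (5.43%, beside 3.31% of all genes). In the equal window, 2.74% of protein-coding genes were gained and 3.33% lost. Gains were 6.67% of the miRNA genes that changed for HDA-1, but 20.0% with 500 bp upstream, 11.8% with 2000 bp and 38.1% among the 4279 widest peaks of each list, with losses in the majority each time. The gained gene was mir-5592.2, whose window an HDA-1 peak missed by 17 bp under control RNAi. The 14 lost genes stood at 12 loci, among them mir-42 to mir-44. Some of the losses also hung on the window edge. At mir-1824 an HDA-1 peak missed the window by 12 bp under control plus atp-2 RNAi. The calls under control RNAi rested on 46 bp at mir-1829.3 and 65 bp at mir-4938. DVE-1 was bound at 92 with atp-2 RNAi, against 78 without it, with 15 gained (5.81%, beside 9.1% of all genes) and 1 lost (0.388%, beside 0.817% of all genes). Both let-7 (within this window) and mir-61 were among the gained genes, and mir-82 was the one lost. The share of miRNA genes that DVE-1 gained was thus below that of all genes, and below the 12.6% of protein-coding genes in the equal window. When each list was cut to its 4279 widest peaks, gains made up 38.9% of the miRNA genes that changed for DVE-1, against 93.8% with all peaks.

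When the partner was depleted, the net change with atp-2 RNAi had the other sign, a difference that was not tested. HDA-1 was bound at 122 miRNA genes under dve-1 plus atp-2 RNAi, against 111 for dve-1 RNAi alone, with 12 gained (4.65%, beside 4.9% of all genes) and 1 lost (0.388%, beside 1.12% of all genes), mir-237. DVE-1 was bound at 105 under hda-1 plus atp-2 RNAi, against 107 under hda-1 RNAi, with 6 gained (2.33%, beside 5.34% of all genes) and 8 lost (3.1%, beside 1.33% of all genes). Among the 6 gained were mir-61, mir-250 and mir-356.1, the 3 genes that DVE-1 gained with atp-2 RNAi both with and without hda-1 RNAi. These 3 genes stood at 2 loci, since mir-61 and mir-250 share their peaks. The gain at mir-356.1 under hda-1 RNAi hung on the window edge. Under hda-1 RNAi alone a DVE-1 peak missed its window by 12 bp, and DVE-1 covered 966 bp of the window of mir-356.2, at the same locus. With 2000 bp upstream or an overlap of 100 bp, gains outnumbered losses in this DVE-1 contrast (58.8% and 58.3% of changed genes gained, against 42.9%).

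More miRNA genes changed between lists with partner RNAi and with control RNAi than between lists with and without atp-2 RNAi. For HDA-1 this was also so over all annotated genes, and for DVE-1 the ranges over all annotated genes overlapped. The samples with partner RNAi were deposited as a set numbered apart from those with control RNAi. Partner depletion and any difference between these sets cannot be told apart in these contrasts, for either protein. HDA-1 gained 24 with dve-1 RNAi over control RNAi (9.3%, beside 3.97% of all genes and 3.52% of protein-coding genes in the equal window) and lost 21 (8.14%, beside 5.05% of all genes and 7.13% of protein-coding genes in the equal window). With atp-2 RNAi in both conditions it gained 35 (13.6%, beside 7.26% of all genes and 6.22% of protein-coding genes in the equal window) and lost 8 (3.1%, beside 3.5% of all genes and 5.1% of protein-coding genes in the equal window). The gained genes stood at 17 loci without atp-2 RNAi and 27 with it. DVE-1 gained 30 with hda-1 RNAi over control RNAi (11.6%, beside 9.95% of all genes) and lost 1 (0.388%, beside 1.34% of all genes). With atp-2 RNAi in both conditions it gained 17 (6.59%, beside 6.67% of all genes) and lost 4 (1.55%, beside 2.33% of all genes). The DVE-1 shares were thus near the background, and the largest gap between miRNA genes and all genes was in the genes HDA-1 gained with dve-1 RNAi. The excess of gains over losses for HDA-1 with dve-1 RNAi was not stable: gains were 53.3% of changed genes without atp-2 RNAi and 81.4% with it, but 30.8% and 42.9% among the 4279 widest peaks of each list, and 44.7% without atp-2 RNAi when 500 bp upstream was used. These 8 contrasts share lists with one another and are not independent.

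**Figure D4:**
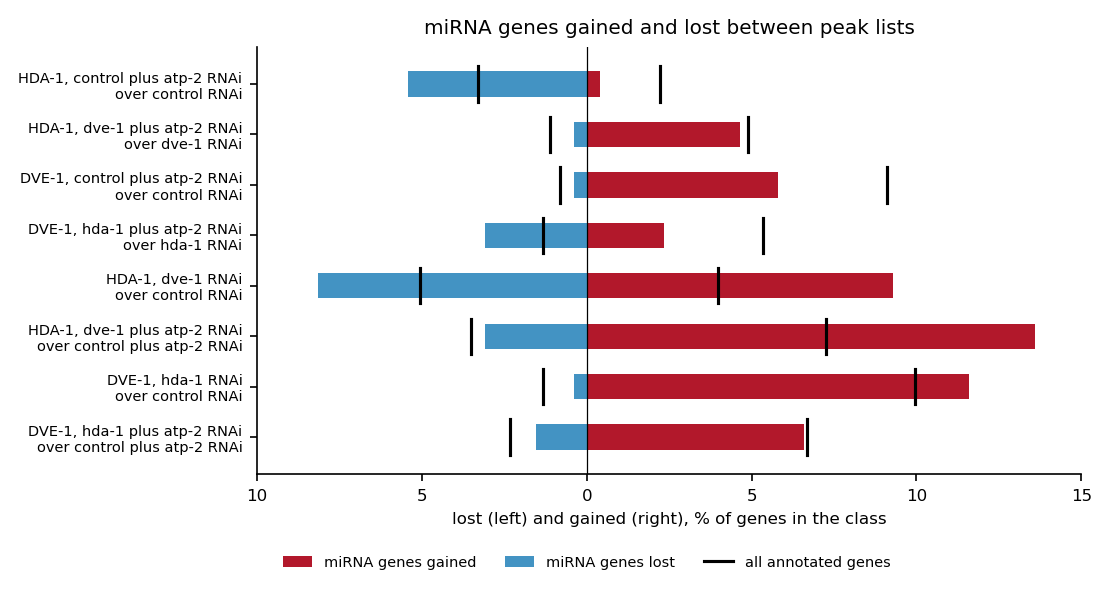
For each of the 8 contrasts, bars to the right are miRNA genes gained and bars to the left miRNA genes lost, as a percentage of 258 genes; black marks give the same shares of all annotated genes. HDA-1 lost 5.43% with atp-2 RNAi under control RNAi, and gained 9.3% and 13.6% in the contrasts of dve-1 RNAi, beyond the marks for all genes.

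A set of 22 miRNA genes at 16 loci was bound by HDA-1 in both lists with dve-1 RNAi and in neither without it. This was 8.53% of the miRNA genes, beside 2.83% of all genes and 2.39% of protein-coding genes in the equal window. Besides mir-35 to mir-41, mir-1 and mir-81 it held mir-50, mir-67, mir-233, mir-268, mir-273, mir-790, mir-791, mir-4933, mir-5592.1, mir-8201, mir-8208, mir-8210 and mir-8212. Covered lengths were mostly short, as at mir-233 (440 and 502 bp), mir-273 (336 and 394 bp) and mir-268 (156 and 219 bp). The calls at mir-790 rested on 21 and 22 bp, below the alternative overlap of 100 bp. In contrast HDA-1 covered the whole 1099 bp window of mir-50 in both lists. The reverse pattern, both HDA-1 lists without dve-1 RNAi and neither with it, held for 8 genes (3.1%, beside 1.79% of all genes and 2.8% of protein-coding genes in the equal window, which is close to the miRNA share): mir-784, mir-1020, mir-2207, mir-2215, mir-2218.2, mir-2221, mir-4916 and mir-5553. Some of these calls hung on the window edge. At mir-2221 an HDA-1 peak missed the window by 9 bp under dve-1 plus atp-2 RNAi and by 52 bp under dve-1 RNAi. At mir-4916 the overlap was 33 bp under control plus atp-2 RNAi and 36 bp under control RNAi. DVE-1 was bound in both lists with hda-1 RNAi and in neither without it at 13 genes at 10 loci (5.04%, beside 3.36% of all genes and 3.48% of protein-coding genes in the equal window), mir-42 and mir-84 among them. The reverse held for 1 gene (0.388%, beside 0.422% of all genes). No miRNA gene was bound by both proteins with atp-2 RNAi and by neither without it under control RNAi, where 1.22% of all genes were.

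Most miRNA genes bound by one protein were bound by the other, as was so over all genes. Under control plus atp-2 RNAi, 81 miRNA genes were bound by both proteins (23.3% of all genes were), 14 by HDA-1 alone and 11 by DVE-1 alone. The 81 were 85.3% of the HDA-1 genes (84.8% over all genes) and 88.0% of the DVE-1 genes (85.3% over all genes). Under control RNAi, 75 were bound by both (17.8% of all genes were), 33 by HDA-1 alone and 3 by DVE-1 alone. The 75 were 69.4% of the HDA-1 genes (62.1% over all genes) and 96.2% of the DVE-1 genes (93.2% over all genes). The 3 genes bound by DVE-1 alone were mir-237, mir-269 and mir-789.1.

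Few miRNA genes belonged to one protein throughout, as was so over all genes. HDA-1 in all 4 lists and DVE-1 in none was found at 5 genes, mir-2, mir-90, mir-124, mir-2213 and mir-8209 (1.94%, beside 1.68% of all genes and 1.79% of protein-coding genes in the equal window). At mir-2, HDA-1 covered the whole 1098 bp window in all 4 lists. At mir-90 it covered 745, 723, 734 and 757 bp. DVE-1 in all 4 lists and HDA-1 in none was found at 1 gene, mir-269 (0.388%, beside 0.115% of all genes), with 32, 2, 36 and 102 bp covered, so that under hda-1 RNAi the call rested on 2 bp. The thinnest call of any list was that of HDA-1 at mir-1829.3 under dve-1 plus atp-2 RNAi (1 bp), and the nearest peak that missed a window in that list was 9 bp away, at mir-2221.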

How the data were processed

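The authors deposited 1 list of peak positions for each of 8 conditions (BED intervals with no score, unit: other). Per the labels' processing notes, the authors used Trim Galore, BWA 0.7.13-r1126, Picard 2.17.6, MACS2 2.1.1 and deepTools 2.4.2 with the ce11 genome, which is WBcel235. The lists are named as peaks that overlap between replicates. The rule that combined the 2 or 3 ChIP samples of a condition is not given in the sources used here, and depth cannot be read from positions. Input samples were not analysed here.

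Genes, hairpins and mature strands came from the RefSeq annotation of WBcel235. Covered bases per window were computed in Python 3.11.15 with pandas 2.3.3 and numpy 2.4.6, tested on simulated data, and checked against bedtools 2.31.1, which gave equal calls for 8 of 8 lists. Intervals (scipy 1.17.1) were 95% Wilson intervals. Overlap of at least 1 bp made a call. The members, lists and alternatives were chosen with earlier results of these data known. Named were let-7, lin-4 and lsy-6, members of the lists of developmental timing, mir-35, mir-51 and mir-58 families, lifespan and stress, and tissue; the 5 genes with the greatest lowest cover; and genes with the patterns between proteins or RNAi conditions given in the report. Other genes named (such as mir-250, mir-43, mir-44, mir-356.1, mir-789.1, mir-5592.2 and mir-1829.3) were chosen after their values were seen. Alternatives were 500 or 2000 bp upstream, an overlap of 100 bp, the 4279 widest peaks of each list, neighbouring genes merged, and hairpins outside protein-coding genes.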

Additional observations from a re-analysis of the deposited data

Results flagged for a closer look

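The net change in bound miRNA genes with atp-2 RNAi had opposite signs with and without depletion of the partner protein. For HDA-1 it was 11 under dve-1 RNAi, against -13 under control RNAi. For DVE-1 it was -2 under hda-1 RNAi, against 14 under control RNAi. With 1 list per condition, the difference was not tested. All annotated genes did not share the sign change for DVE-1, since 80.1% of those that changed were gained under hda-1 RNAi and 91.8% under control RNAi. For HDA-1 all annotated genes did share it, since gained genes made up 81.3% of all changed genes under dve-1 RNAi and 40.3% under control RNAi.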

How the results depend on the processing

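No paired analysis was possible because each condition has 1 list with no value per replicate, and for the same reason no replicate could be left out. With 2000 bp upstream, HDA-1 was bound at 53.9% (dve-1 plus atp-2 RNAi) and 49.2% (dve-1 RNAi) of miRNA genes, and gained genes made up 58.8% of those that changed for DVE-1 upon atp-2 RNAi under hda-1 RNAi, against 42.9% with 1000 bp. An overlap of 100 bp put that share at 58.3%, and the widest peaks at 21.7%. For HDA-1 with atp-2 RNAi under control RNAi, gains were 6.67% of changed genes, and 20.0% with 500 bp upstream. For HDA-1 with dve-1 RNAi over control RNAi, the share gained was 53.3%, and was 44.7% with 500 bp upstream, 45.9% with neighbouring genes merged and 38.1% for hairpins outside protein-coding genes: its direction was not stable. Outside protein-coding genes, HDA-1 was bound at 39.0% (dve-1 plus atp-2 RNAi) and 35.1% (dve-1 RNAi), and the share gained by DVE-1 was 100% both for atp-2 RNAi and for hda-1 RNAi over control RNAi.

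Keeping only the widest peaks, as many as in the shortest list, had the most effect. HDA-1 was then bound at 29.5% (dve-1 plus atp-2 RNAi), 27.5% (dve-1 RNAi) and 33.3% (control RNAi), and DVE-1 at 28.7% (hda-1 plus atp-2 RNAi), 33.7% (hda-1 RNAi) and 28.7% (control plus atp-2 RNAi). The share gained with atp-2 RNAi was 63.2% for HDA-1 under dve-1 RNAi and 38.1% under control RNAi, and 38.9% for DVE-1 under control RNAi, against 93.8% with all peaks, which reverses its direction. The share gained by HDA-1 with dve-1 RNAi was 30.8% without atp-2 RNAi and 42.9% with it, against 81.4% with all peaks, also reversed. The share gained by DVE-1 with hda-1 RNAi was 60.5% without atp-2 RNAi and 50% with it. Widths differ between lists, so this choice also removes narrow peaks unequally.

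Further subsets, by peaks and by symbol number, were chosen after seeing the data. Leaving out 70 miRNA genes whose peaks reach a protein-coding 5′ end in any list, HDA-1 was bound at 36.2%, 33.5%, 24.5% and 28.2% of the other 188 (order of lists as in the report) and DVE-1 at 26.6%, 28.7%, 21.8% and 20.7%. This subset drops only bound genes, so its shares are lower by construction, and it has no matching background here. The 135 genes with symbol numbers under 1000 (let-7, lin-4 and lsy-6 included) were bound at 61.5%, 56.3%, 43.7% and 48.9% for HDA-1 and 51.1%, 52.6%, 42.2% and 37.0% for DVE-1. The 123 genes from 1000 up were bound at 31.7%, 28.5%, 29.3% and 34.1% for HDA-1 and 29.3%, 29.3%, 28.5% and 22.8% for DVE-1, below the equal-window protein-coding background except under control RNAi for both proteins.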

Other observations

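The miRNA genes with symbol numbers under 1000, in general the earlier described ones, held 42 of the 63 genes bound in all 8 lists and 40 of the 109 bound in none. Those from 1000 up held 21 and 69. Of the hairpins from 1000 up, 43 of 123 lay in a protein-coding gene on the same strand, and of those under 1000, 29 of 135.

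The word GAGAGA, searched on both strands in the 250 bp before and 50 bp after each gene start, was present at 23 of 63 miRNA genes bound in all 8 lists (36.5%), at 17 of 109 bound in none (15.6%), at 23.6% of all miRNA genes, 21.7% of protein-coding genes and 17.4% of all genes. The GATA-type word TGATAA was present at 22.2% of miRNA genes bound in all 8 lists, 25.7% of those bound in none and 29.0% of all genes. Both are descriptions of letters near hairpin starts, which are not the starts of the primary transcripts, and whether they bear on binding was not tested.

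Of the 46 seeds shared by 2 or more genes, 3 had every gene bound in all 8 lists, 9 had every gene bound in none, and the other 34 had neither pattern. Seeds were read from every annotated mature strand (455 strands of 257 genes), so the same genes can be counted under different seeds, as mir-5593.1 and mir-5593.2 were. Members of a family also often share a locus and a peak, so these counts are not over independent genes.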
